A study of Mus musculus with 41 samples.

Results

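The sites described here are 831 of the 6671 MYC-tag CUT&RUN (CNR) peaks of wild-type SOX9 (WT-SOX9) in cultured mouse keratinocytes, or 12.5% of that list. They were selected on 3 other peak lists. A WT-SOX9 peak was taken when it was overlapped, by at least 1 bp, by a MYC-tag peak of a SOX9 that lacks its transactivation domain (dTA-SOX9) and by a peak of the MLL3/4 methyltransferases in uninduced cells, and when no MYC-tag peak of uninduced cells overlapped it. They are called shared sites below. By this choice every shared site carried MLL3/4 before SOX9 was switched on and held both forms of SOX9 afterwards, so neither fact is a result. What the choice did not use was MLL3/4 after induction, the sequence and position of the sites, and the peak lists of skin.

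SOX9 is a transcription factor of the SOX family that binds DNA through its high mobility group (HMG) domain and recruits partner proteins through its transactivation (TA) domain. In skin it is known as a master regulator of hair follicle stem cells, and its sustained expression in the epidermis is linked to basal cell carcinoma. MLL3 and MLL4, encoded by *Kmt2c* and *Kmt2d*, place the monomethyl mark on lysine 4 of histone H3 at enhancers, and they are found at primed and active enhancers. In epidermal keratinocytes such enhancers are commonly bound by AP1, the FOS and JUN family of factors.

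The cells were keratinocytes grown from back skin of male CD1 mice carrying K14rtTA, in which the *Krt14* promoter drives the doxycycline (DOX)-dependent activator. They carried TRE-myc-Sox9 (WT-SOX9), TRE-myc-Sox9noTA (dTA-SOX9) or TRE-myc-Sox9noHMG (dHMG-SOX9, without the DNA-binding domain), put in by viral transduction and selection with puromycin, and were given 1 µg/ml DOX. Uninduced cells were of the WT-SOX9 line, so the cells of both deletions had no DOX-free control of their own. MYC-tag and MLL3/4 CNR had 2 samples per group, pooled by the authors into 1 peak list, so that no test between groups was possible and the intervals given here cover counting over sites alone. The titles number the pair of MLL3/4 samples from induced WT-SOX9 cells 1 and 2, whereas their other labels describe each as replicate 2. The MLL3/4 list of that group was also the shortest, at 10543 peaks, where dHMG-SOX9 had 23301, dTA-SOX9 25948 and uninduced cells 33975, and its depth is unknown. In the uninduced cells, 6 of 6 keratinocyte marker genes (*Krt5*, *Krt14*, *Trp63*, *Itgb4*, *Col17a1* and *Dsp*) had between 4 and 10 MLL3/4 peaks within 10 kb, while of 8 genes of other skin cells *Pecam1* had 9, *Mitf* 5 and *Ptprc* 1, and *Cdh5*, *Pdgfra*, *Col1a1*, *Mlana* and *Kit* had 0. The part of these other marker genes in the results was not tested.

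Sequences at the WT-SOX9 maximum show the range of DNA found at shared sites. Each of the following windows reached 50 bp to either side of the maximum (mm10, plus strand, 5′ to 3′). Capitals mark a SOX word (CCATTGT or CCTTTGT, each also with G as its first base, on either strand) or an AP1 word (TGACTCA or TGAGTCA). The first 3 are the shared sites of highest WT-SOX9 total signal whose window held both words. They lay in an intron of *Acvr1* (chr2:58505886-58505986), between genes near *Ccser1* (chr6:61115368-61115468) and between genes near *Tes* (chr6:17172064-17172164). The nearest annotated transcription starts were 10336, 32489 and 281 bp away, so the *Tes* site counted as a promoter site below. Sites between genes are named by the nearest protein-coding gene at any distance, here 64906 and 66286 bp. In *Acvr1* a pair of SOX words faced each other 3 bp apart, the arrangement known for SOX9 dimers.
Acvr1: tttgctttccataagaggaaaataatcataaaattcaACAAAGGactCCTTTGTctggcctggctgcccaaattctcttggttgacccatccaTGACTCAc
Ccser1: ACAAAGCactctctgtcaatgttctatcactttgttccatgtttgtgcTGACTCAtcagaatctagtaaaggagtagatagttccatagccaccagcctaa
Tes: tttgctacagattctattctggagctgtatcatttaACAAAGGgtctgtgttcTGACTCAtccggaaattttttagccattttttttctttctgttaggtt

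The next windows came from the ends of the signal range. *Myo1d* (chr11:80532620-80532720, intron) and *Bpifc* (chr10:86006704-86006804, intron) were the shared sites of highest WT-SOX9 total signal, and both held a SOX word. *Osbpl3* (chr6:50390325-50390425, intron) was among the 3 of highest dTA-SOX9 total signal and held neither word. *Plec* (chr15:76158549-76158649, between genes) had the highest MLL3/4 total signal with WT-SOX9 among the sites that carried MLL3/4 in all 4 lists. *Wdr11* (chr7:129855035-129855135, between genes) and *Mettl15* (chr2:108399386-108399486, between genes) had strong MLL3/4 without DOX and none with WT-SOX9.
Myo1d: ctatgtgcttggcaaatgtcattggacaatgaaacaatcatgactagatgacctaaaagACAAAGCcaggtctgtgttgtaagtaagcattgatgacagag
Bpifc: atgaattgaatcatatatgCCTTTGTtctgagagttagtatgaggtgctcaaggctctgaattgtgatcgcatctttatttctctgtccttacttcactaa
Osbpl3: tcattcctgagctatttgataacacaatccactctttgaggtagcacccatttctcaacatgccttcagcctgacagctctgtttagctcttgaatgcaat
Plec: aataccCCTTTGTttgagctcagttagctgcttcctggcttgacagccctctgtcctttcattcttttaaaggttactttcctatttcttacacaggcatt
Wdr11: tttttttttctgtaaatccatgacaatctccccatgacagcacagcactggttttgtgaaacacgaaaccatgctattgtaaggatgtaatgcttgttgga
Mettl15: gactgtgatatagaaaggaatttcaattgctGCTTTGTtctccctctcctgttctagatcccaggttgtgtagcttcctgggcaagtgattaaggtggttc

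Binding of both forms was first described at the sites themselves. Shared sites had a median width of 219 bp (60 to 772). The WT-SOX9 maximum, in RPKM, which scales reads to length and library size, ranged from 1806 to 15595 with a median of 2462 (quartiles 1970 and 3447). That median stands for 15 fragments and the lowest value for 11, so that many of these peaks lay near the limit of the list. At the same sites the dTA-SOX9 maximum ranged from 1846 to 15999 RPKM with a median of 4307 (quartiles 3077 and 5948). The dTA-SOX9 maximum was the higher at 698 of the 831 sites (84.0%), with a median ratio of 1.61 (0.186 to 6.66). At the 261 sites shared by both forms but without prior MLL3/4 the median ratio was 1.15. The dTA-SOX9 list holds no peak with a total signal below 205320, whereas the WT-SOX9 list reaches down to 77156, so a strong dTA-SOX9 signal was in part a condition of being chosen. Over the shared sites both maxima were only weakly related (Spearman's rho 0.216, a description over 831 sites of the same libraries). The positions of the maxima were closer, with a median distance of 43 bp, and lay within 50 bp of each other at 452 sites (54.4%).

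**Figure D1:**
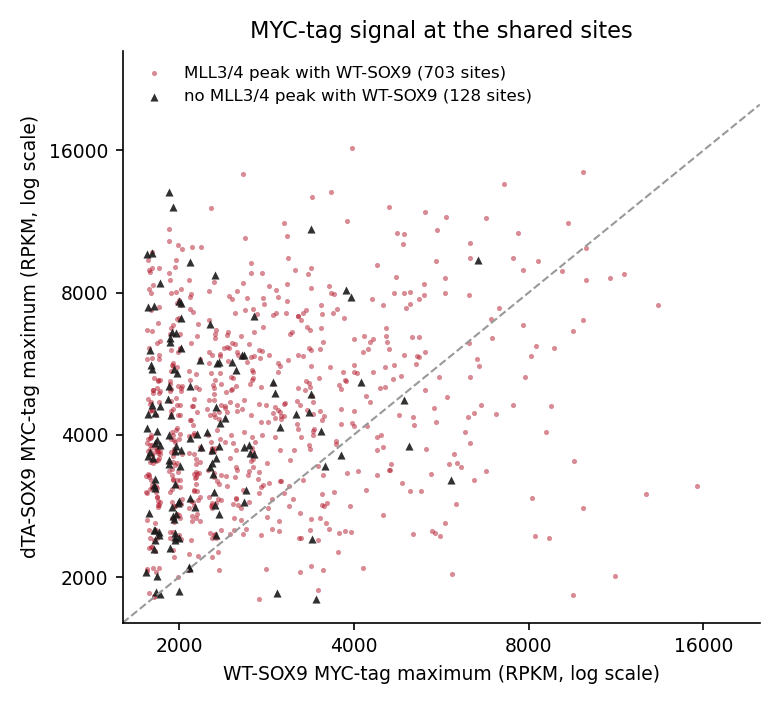
MYC-tag maxima of WT-SOX9 (x axis) and dTA-SOX9 (y axis) at the 831 shared sites, both in RPKM on log scales, with points shifted slightly at random to separate equal values and the dashed line marking equal values. Most points lie above the line, and the 128 sites without an MLL3/4 peak in WT-SOX9 cells (black triangles) gather at low WT-SOX9 maxima.

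Single sites spanned this range. At *Myo1d*, which encodes an unconventional myosin, the maximum was 9521 RPKM with WT-SOX9 and 6564 RPKM with dTA-SOX9. At *Tmem200a* it was 9686 and 2872 RPKM, and at a site 60928 bp from *Pxdc1* 11163 and 8410 RPKM. At these sites, chosen among the 5 of highest WT-SOX9 total signal, the maximum was lower with dTA-SOX9, although the total signal at *Myo1d* was not. At *Osbpl3*, which encodes an oxysterol-binding protein, the order was turned, with 3612 RPKM for WT-SOX9 and 12717 RPKM for dTA-SOX9. The maxima of the 2 forms lay 151 bp apart there. At the limit of the rule, the smallest overlap of a shared site with a dTA-SOX9 peak was 1 bp (*Ugcg*) and with a no-DOX MLL3/4 peak 8 bp (*Tmem179*), against medians of 178 and 190 bp. Just outside it, a WT-SOX9 site near *2010111I01Rik* missed a dTA-SOX9 peak by 1 bp.

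To ask what became of MLL3/4 once SOX9 was induced, the shared sites were looked up in the 3 MLL3/4 lists with DOX. With WT-SOX9, 703 of the 831 sites (84.6%, 95% CI 82.0 to 86.9) kept an MLL3/4 peak, with dTA-SOX9 728 (87.6%, 95% CI 85.2 to 89.7) and with dHMG-SOX9 706 (85.0%, 95% CI 82.4 to 87.2). The same sites moved by 10 kb, the local background, gave 1.74%, 3.13% and 3.07%. Over all 6671 WT-SOX9 sites, with or without prior MLL3/4, the shares were 56.6%, 23.7% and 25%. Of all 33975 no-DOX MLL3/4 peaks, 18% were found again with WT-SOX9, 55.7% with dTA-SOX9 and, in dHMG-SOX9 cells, 56.5%. MLL3/4 at the shared sites was therefore found again more often than across its own list, whose share differed between lists of unequal length.

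Between the 3 lists the shared sites differed little. The share with WT-SOX9 stood 3.01 points below that with dTA-SOX9 (95% CI of WT-SOX9 minus dTA-SOX9 -6.12 to 0.107), and was -0.361 points from that with dHMG-SOX9 (95% CI -3.50 to 2.78). The dTA-SOX9 share exceeded the dHMG-SOX9 share by 2.65 points (95% CI 0.224 to 5.07). These orders turned once all MLL3/4 lists were limited to the same number of peaks, which left 560 shared sites. WT-SOX9 then stood 6.79 points above dTA-SOX9 (95% CI 3.16 to 10.4) and 3.21 points above dHMG-SOX9, and dTA-SOX9 minus dHMG-SOX9 was -3.57 points. Above 3600 RPKM, with the MLL3/4 lists at full length, WT-SOX9 also stood above dTA-SOX9 (5.10 points) and dHMG-SOX9 (9.55 points). No order of the 3 forms at these sites held under all settings, and the cause was not tested.

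All 3 lists kept MLL3/4 at 583 shared sites (70.2%), and none did at 19 (2.29%). At 81 sites (9.75%) MLL3/4 was missing with WT-SOX9 alone, and at 33 (3.97%) with dTA-SOX9 alone. At 42 sites (5.05%) it was kept with WT-SOX9 and missing with both deletions. At *Plec*, whose product links keratin filaments to hemidesmosomes, the unscaled maximum of MLL3/4 was 64 in uninduced cells, 64 in WT-SOX9 cells, 43 in dTA-SOX9 cells and 51 in dHMG-SOX9 cells. Near *Slc5a12*, 76074 bp away, it was 36, 44, 44 and 28. Near *Btbd3*, 545901 bp away, it was 36, 39, 30 and 21 in the same order. At these 3 sites, chosen for their signal with WT-SOX9, WT-SOX9 cells had at least as much as uninduced cells. Near *Wdr11*, 219347 bp away, the maximum was 85 in uninduced, 35 in dTA-SOX9 and 46 in dHMG-SOX9 cells. No peak was listed there with WT-SOX9. Near *Mettl15*, 692861 bp away, it was 38, 32 and 10. In an intron of *Sfi1* it was 21, 19 and 17, again with no peak with WT-SOX9 at either site. The WT-SOX9 MYC-tag maxima of these 3 sites were 1970, 2134 and 2955 RPKM, the last of them above the median of the shared sites. The unscaled values of different lists are not on 1 scale and are given side by side.

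WT-SOX9 sites on prior MLL3/4 that dTA-SOX9 did not share (652 sites, the WT-only sites) offered the closest comparison. Of them, 59.5% kept MLL3/4 with WT-SOX9, 56.9% with dTA-SOX9 and, in dHMG-SOX9 cells, 70.9%. The shared sites exceeded them by 25.1 points (95% CI 20.6 to 29.5), 30.7 points (95% CI 26.2 to 35.1) and 14.1 points (95% CI 9.86 to 18.4). Outside promoters the differences were 13.6 points (95% CI 8.57 to 18.7) with WT-SOX9, 37.9 points (95% CI 32.4 to 43.2) with dTA-SOX9 and 21.01 points (95% CI 15.7 to 26.4) with dHMG-SOX9. The difference with WT-SOX9 was 3.43 points (95% CI -2.50 to 10.02) where the MYC-tag lists were limited to maxima above 3600 RPKM. That limit classed the sites anew, so a site whose dTA-SOX9 peak fell below it counted as WT-only. Of the WT-only sites, 390 (59.8%) had a WT-SOX9 total signal below the lowest of the dTA-SOX9 list, as had 331 (39.8%) of the shared sites, so the lack of a dTA-SOX9 peak does not by itself show a lack of dTA-SOX9.

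Shared sites also lay on stronger MLL3/4 peaks to begin with, since 59.7% of the 817 no-DOX MLL3/4 peaks under them belonged to the top quartile of the list by total signal, against 31.3% of the 616 under WT-only sites, 44.4% of the 6150 under dTA-SOX9 peaks without WT-SOX9, and 15.9% of the 24104 that no MYC-tag list touched. The fate of MLL3/4 was therefore compared within quartiles. In the lowest quartile, 68.3% (95% CI 56.0 to 78.4) of the peaks under shared sites were found again with WT-SOX9, against 6.80% of those under dTA-SOX9 peaks alone and 2.80% of those with no MYC-tag peak. In the highest quartile these shares were 92.6%, 48.0% and 34.2%. The peaks under shared sites exceeded those with no MYC-tag peak by between 58.4 and 71.7 points in the 4 quartiles. Against the WT-only sites they were higher by 28.5 points (95% CI 15.9 to 39.5) in the second quartile, 21.8 (95% CI 11.9 to 31.1) in the third and 14.9 (95% CI 8.97 to 21.6) in the highest. In the lowest quartile that difference was 5.33 points (95% CI -10.1 to 19.9), within its counting error.

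With dTA-SOX9 the classes fell differently. In the lowest quartile, 47.6% of the peaks under shared sites were found again, 60.3% of those under dTA-SOX9 peaks alone, 14.6% of those under WT-only sites and 21.03% of those with no MYC-tag peak. The shared sites and the sites of dTA-SOX9 alone differed by between -12.7 and -0.775 points in the 4 quartiles, and each of the 4 intervals included 0. Against the WT-only sites the shared sites were higher by 33.0 points (95% CI 18.3 to 46.5) in the lowest quartile and by 12.1 points (95% CI 7.41 to 17.8) in the highest. With dHMG-SOX9 the shared and the WT-only sites differed by between -2.82 and 9.50 points within quartiles, and each interval included 0. Against peaks with no MYC-tag peak, the shared sites were higher with dHMG-SOX9 as well, by 15.8, 23.0, 14.5 and 7.03 points from the lowest to the highest quartile, with each interval above 0. The peaks under dTA-SOX9 alone were also found again more often than those with no MYC-tag peak in cells expressing another form, at 35.4% against 20.8% with dHMG-SOX9 in the lowest quartile and at 48.0% against 34.2% with WT-SOX9 in the highest. A higher share at shared sites was therefore not particular to the forms of SOX9 that had a MYC-tag peak there.

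**Figure D2:**
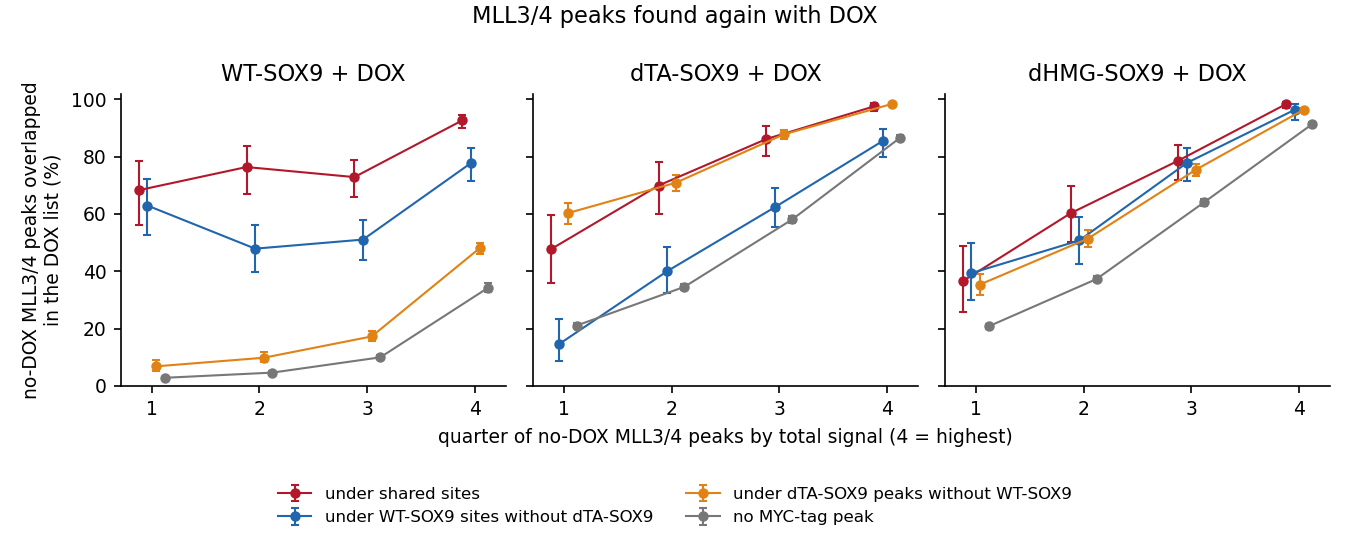
Share of no-DOX MLL3/4 peaks (y axis, percent) found again in cells expressing WT-SOX9 (left), dTA-SOX9 (middle) or dHMG-SOX9 (right), by quartile of no-DOX total signal (x axis), with 95% Wilson intervals, for the peaks under shared sites (817), under WT-SOX9 sites without dTA-SOX9 (616), under dTA-SOX9 peaks without WT-SOX9 (6150) and with no MYC-tag peak (24104). Peaks under shared sites (red) lie above those with no MYC-tag peak (grey) in every quartile of all 3 panels.

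How much MLL3/4 signal remained was set against peaks of the same pair of lists that no MYC-tag list overlapped, since the depth of the MLL3/4 lists is unknown. On the log2 scale, the median change of the MLL3/4 maximum from no DOX to WT-SOX9, relative to those peaks, was 0.49 over the 703 shared sites with a peak (95% CI 0.38 to 0.59, quartiles -0.09 and 1.22). With dTA-SOX9 it was -0.14 over 728 sites (95% CI -0.21 to -0.08) and with dHMG-SOX9 -0.07 over 706 sites (95% CI -0.11 to -0.02). Within the top quartile of no-DOX signal, where between 85.5% and 98.4% of the peaks of each class compared here were found again with either deletion, the medians by MLL3/4 peak were 0.65, 0.17 and 0.14. In that quartile the peaks under dTA-SOX9 alone had medians of -0.11 with WT-SOX9 and 0.23 with dTA-SOX9, and the peaks under WT-only sites 0.43 and -0.10. With dHMG-SOX9 these classes had medians of 0.044 and 0.20 in the same order. The shared sites were above the reference in all 3 lists of that quartile, by about as much with dHMG-SOX9 as with dTA-SOX9. The reference holds only peaks that were found again, which are a larger part of the list with either deletion than with WT-SOX9. Limiting the lists to equal size moved the medians over sites to 0.65, 0 and 0.03, so the values below 0 with the deletions did not hold.

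MLL3/4 with WT-SOX9 followed the strength of WT-SOX9 binding. From the lowest to the highest quartile of the WT-SOX9 maximum, 73.6%, 80.3%, 91.3% and 93.3% of the shared sites kept MLL3/4 with WT-SOX9. The intervals of the lowest (67.2 to 79.1) and the highest quartile (89.0 to 95.9) did not overlap. With dTA-SOX9 the same quartiles gave 85.6%, 89.9%, 88.9% and 86.1%, and with dHMG-SOX9 87.0%, 86.1%, 85.0% and 81.7%. Ordered by the ratio of dTA-SOX9 to WT-SOX9 instead, MLL3/4 with dTA-SOX9 went from 79.8% in the lowest quartile to 94.2% in the highest, and with dHMG-SOX9, which was no part of the ratio, from 73.6% to 91.8%. With WT-SOX9 it went from 89.9% to 80.8%. The 81 sites where MLL3/4 was missing with WT-SOX9 alone had a median WT-SOX9 maximum of 1970 RPKM and a median dTA-SOX9 maximum of 4102 RPKM. Their no-DOX MLL3/4 peaks ranked at a median percentile of 71.3 by total signal, against 88.7 for the 583 sites kept in all lists and 30.8 for the 42 kept with WT-SOX9 alone.

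Whether the sites held the sequences of SOX and AP1 factors was asked in the windows of 101 bp around the WT-SOX9 maximum. A SOX word stood in 219 windows (26.4%, 95% CI 23.5 to 29.5), against 5.96% of windows 1 kb to either side and 4.65% of windows of the same length at 93459 transcription starts. With a longer SOX word the share was 7.70%, with a shorter one 45.6%, and above 3600 RPKM 42.0%. An AP1 word stood in 169 windows (20.3%, 95% CI 17.7 to 23.2), against 1.38% and 1.27%, and in 36.3% of windows that reached 100 bp to each side. Both words were found in 41 windows (4.93%) and either in 347 (41.8%). Within these windows, which end 50 bp from the maximum, the median distance was 15 bp for SOX and 22 bp for AP1, and AP1 words showed no clear gathering at the maximum. A facing pair of the shorter SOX word (CATTGT or CTTTGT), with 3 to 5 bp between, stood in 16 windows (1.93%). It stood in 0 windows at 1 kb and in 10 of the 93459 windows at transcription starts (0.0107%). By this shorter word the pair in the *Acvr1* window above had 5 bp between. A match is a run of letters and does not show that a factor was bound.

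The AP1 word set the shared sites apart from WT-SOX9 sites without a dTA-SOX9 peak. It was found in 7.98% of WT-only windows, a difference of 12.4 points (95% CI 8.87 to 15.8), or 21.5 points in the windows of 100 bp to each side, and outside promoters of 8.92 points (95% CI 4.54 to 13.0). The 4540 WT-SOX9 sites with neither prior MLL3/4 nor dTA-SOX9 had it in 4.23% of windows, 16.1 points less (95% CI 13.4 to 19.0). The 261 sites shared with dTA-SOX9 without prior MLL3/4 had it in 15.3%, and the difference of 5.01 points (95% CI -0.509 to 9.83) was within counting error. The SOX word was less common at shared sites than at sites with neither (39.7%), a difference of -13.3 points (95% CI -16.5 to -9.89). Against the WT-only sites (22.2%) it differed by 4.11 points (95% CI -0.304 to 8.44), and outside promoters by -3.07 points (95% CI -8.64 to 2.35). The interval lay above 0 under 4 other settings, among them the shorter SOX word (9.72 points, 95% CI 4.68 to 14.7), so whether these classes differed depended on the setting.

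Among the shared sites, the words were split by the strength of either form. In the highest quartile of the WT-SOX9 maximum 42.3% held a SOX word, against 15.9% in the lowest, a difference of 26.4 points (95% CI 17.8 to 34.4). For the AP1 word the same quartiles gave 17.3% and 24.6%, a difference of -7.33 points whose interval included 0 (-15.1 to 0.519). Where dTA-SOX9 exceeded WT-SOX9 most, 21.6% held a SOX word and 25.5% an AP1 word. Where it exceeded WT-SOX9 least, the shares were 38.7% and 14.0%. Centring the windows on the dTA-SOX9 maximum of the same sites gave a SOX word in 19.5% and an AP1 word in 27.0%. The paired differences, WT-SOX9 centre minus dTA-SOX9 centre, were 6.86 points for SOX (95% CI 4.24 to 9.48) and -6.62 points for AP1 (95% CI -9.44 to -3.79). At the 128 shared sites without MLL3/4 in WT-SOX9 cells the AP1 word stood in 27.3% of windows, against 19.1% at the other 703, a difference of 8.28 points (95% CI 0.661 to 17.0).

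**Figure D3:**
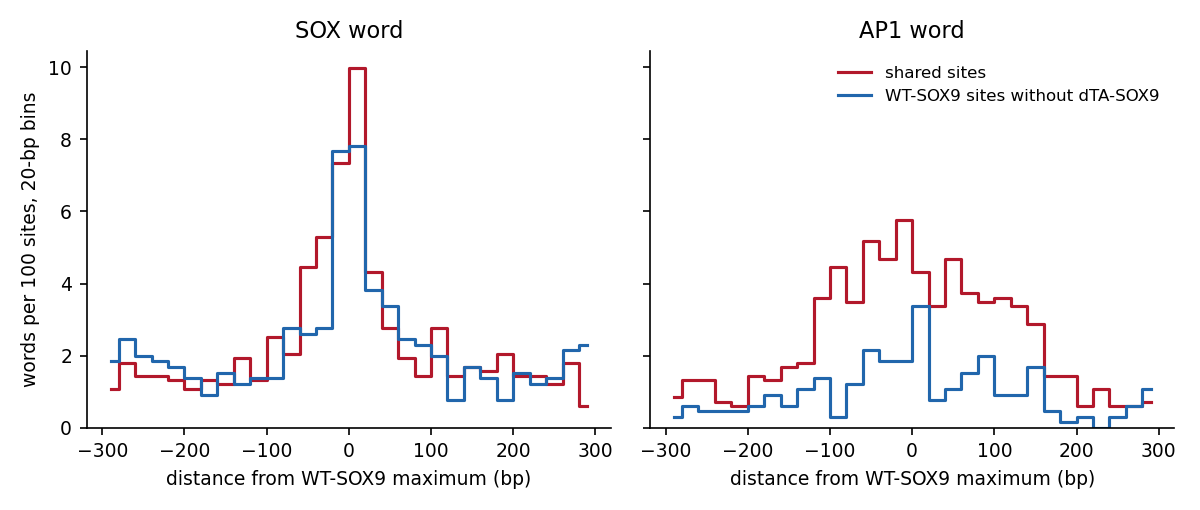
SOX words (left) and AP1 words (right) per 100 sites (y axis) in 20-bp bins by distance from the WT-SOX9 maximum (x axis, bp), for the 831 shared sites (red) and the 652 WT-SOX9 sites on prior MLL3/4 without dTA-SOX9 (blue). SOX words peak at the maximum in both classes, with up to 9.99 words per 100 shared sites, while AP1 words form a broader and, at shared sites, higher mound.

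Words of other factors were rare at the shared sites. RUNX (AACCACA) stood in 3.97% of windows (control 2.23%), the word of GATA factors (AGATAAC or AGATAAG) in 2.89% (control 2.59%), TEAD (ACATTCC) in 1.93% (control 1.63%) and GRHL (AACC followed by GTT, with 1 base between) in 1.69% (control 0.842%). TP63 (a pair of CATG 6 bases apart) stood in 0.361% (control 0.421%) and CTCF (CCANNAG, NN and GGC) in 0.241% (control 0.421%). The intervals of the shared sites included the control value for GATA, TEAD, TP63 and CTCF and lay above it for RUNX (2.84 to 5.52) and GRHL (1.01 to 2.81). The share of CpG-rich windows differed more. At least 4 CpG stood in 4.93% of shared windows and 27.5% of WT-only windows, and the mean GC content was 43.4% ± 6.68 (SD over 831 windows) and 48.7% ± 9.19 (SD over 652 windows).

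By position the shared sites were mostly distal. Of the 831, 380 (45.7%) lay in introns, 357 (43.0%) between genes and 108 (13.0%, 95% CI 10.9 to 15.5) within 1 kb of an annotated transcription start. Of the WT-only sites 37.3% lay at such promoters, a difference of -24.3 points (95% CI -28.6 to -19.9). It was 0.751 points (95% CI -6.78 to 7.87) where MYC-tag maxima were limited to above 3600 RPKM, which classed the sites anew. The median distance to a transcription start was 8666 bp for shared and 3255 bp for WT-only sites. At promoters, 80.6% of shared sites kept MLL3/4 with WT-SOX9, against 39.1% of WT-only sites, a difference of 41.5 points (95% CI 30.9 to 50.1). Another shared site lay within 50 kb of 166 shared sites.

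Genes near the shared sites were counted with 50 kb to each side, and 1267 of 21938 protein-coding genes (5.78%) had at least 1. The lists of epidermal genes used here held few genes each, long genes reach more sites, and the counts are descriptions. With 10 kb to each side 585 genes had one, and the count of WNT genes below was 1. Of 16 genes of basal keratins and adhesion, 7 had a shared site (*Col17a1*, *Itga6*, *Itgb1*, *Krt5*, *Lama3* and *Plec* among them), and of 17 desmosome and junction genes 6 (*Dsc3*, *Dsg2*, *Dsg3*, *Dsp*, *Pkp1* and *Tjp1*). Of 18 genes of hair follicle stem cells and the outer root sheath, 3 had one (*Krt17*, *Lrig1* and *Runx1*), of 11 EGF receptor and ligand genes 3 (*Nrg1*, and *Epgn* and *Ereg* through the same site), of 14 WNT genes 3 (*Dkk3*, *Fzd7* and *Wnt7a*) and of 4 genes of RUNX factors and their partner 2 (*Cbfb* and *Runx1*). Among 17 epidermal transcription factors only *Zfp750* had one, and among 11 SOX genes only *Sox5*. None was found for 15 keratinocyte differentiation genes, 14 of TGF-beta and BMP signalling, 12 of epithelial-mesenchymal transition, 11 of Notch signalling, 10 AP1 genes and 10 Hedgehog genes. Of 8 marker genes of other skin cells, *Mitf* had 1 site. Of 7 loci named by the study, *Krt5* had 2 shared sites and *Runx1* 1, and *Gata3*, *Trp63*, *Ctnnb1*, *Vim* and *Sox9* had 0.

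The adhesion genes carried shared sites of unequal strength. Upstream of *Col17a1*, which encodes the hemidesmosomal collagen XVII, 3 sites lay at -6.37, -7.82 and -37.1 kb from the gene start. The first (chr19:47698369-47698598) had MYC-tag maxima of 6074 RPKM with WT-SOX9 and 3487 RPKM with dTA-SOX9, and unscaled MLL3/4 maxima of 58 in uninduced cells, 26 in WT-SOX9 cells, 24 in dTA-SOX9 cells and 52 in dHMG-SOX9 cells. The second (chr19:47699842-47700000) had 2627 and 5128 RPKM, and MLL3/4 maxima of 36, 10, 23 and 23 in the same order. The third (chr19:47728924-47729231), with a SOX word, had 8044 and 2461 RPKM, and MLL3/4 maxima of 10, 17 and 8 without a peak with dHMG-SOX9. The listed value with WT-SOX9 was below that without DOX at the pair of sites nearer to the gene and above it at the distal one. The lists are not on 1 scale, and the maxima of peaks that no MYC-tag list overlapped fell by 1.38 (median, log2) between the same lists.

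At *Krt5*, which encodes the keratin of basal epidermal cells, a site at -2.13 kb from its start (chr15:101714898-101715203) had 2627 RPKM with WT-SOX9 and 2872 RPKM with dTA-SOX9, and MLL3/4 maxima of 26, 14, 27 and 46 in the order above. The other (chr15:101697919-101698051) had 1806 and 3282 RPKM and MLL3/4 maxima of 23, 10 and 15 with no peak with dTA-SOX9. Near *Itgb1*, the beta subunit of the laminin and collagen integrins of basal cells, a site at -18.6 kb from its start (chr8:128667012-128667230) had 2955 and 11487 RPKM, and MLL3/4 maxima of 38, 14, 29 and 18. Its intronic site (chr8:128703723-128703810), of 2134 and 5128 RPKM, had no MLL3/4 peak with WT-SOX9. The same held for a site at -15.4 kb from the start of *Lama3*, which encodes a laminin chain, with a WT-SOX9 maximum of 1970 RPKM. The other *Lama3* site (chr18:12628248-12628715), downstream of the gene, had 4597 RPKM with WT-SOX9 and MLL3/4 maxima of 25, 36, 13 and 27. Both of these sites without MLL3/4 in WT-SOX9 cells had a higher maximum with dTA-SOX9 than with WT-SOX9, as had 84.0% of all shared sites.

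Desmosomal cadherins had a group of sites. In and around *Dsg3* and *Dsg2* on chromosome 18 stood 5 shared sites. MLL3/4 was kept at each of them in all 3 lists with DOX, against 70.2% of all shared sites. The site at the start of *Dsg3* (chr18:20509940-20510309) had 4432 RPKM with WT-SOX9 and 9025 RPKM with dTA-SOX9, and MLL3/4 maxima of 20 in uninduced cells, 19 in WT-SOX9 cells, 26 in dTA-SOX9 cells and 48 in dHMG-SOX9 cells. A pair of sites upstream of *Dsg2* (1970 and 3447 RPKM with WT-SOX9) lay on the same MLL3/4 peak, with maxima of 79, 37, 44 and 62. Near *Dsc3* a single site (chr18:19959277-19959711) had 6402 and 10256 RPKM, and MLL3/4 maxima of 99, 27, 64 and 69. At *Dsp*, the plakin of desmosomes, a site at -6.08 kb from its start (chr13:38145185-38145245) had 1970 and 2872 RPKM, and MLL3/4 maxima of 77, 24, 32 and 57. MLL3/4 was listed with WT-SOX9 at all 7 of these sites, and each listed value was below its no-DOX value, as was the median of the peaks that no MYC-tag list overlapped.

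Sites at genes of the hair follicle and of signalling were single. In an intron of *Lrig1*, an inhibitor of EGF receptors and marker of follicle stem cells, a site with both words (chr6:94635355-94635698) had 3447 RPKM with WT-SOX9 and 12512 RPKM with dTA-SOX9, and MLL3/4 maxima of 49, 20, 40 and 30. In *Runx1*, a regulator of hair follicle stem cells, the site (chr16:92609779-92609925) was among the weakest, with 1806 and 1846 RPKM, and its MLL3/4 maxima were 34, 7, 19 and 29. In an intron of its partner *Cbfb* (chr8:105186603-105186936) the values were 3283 and 5948 RPKM, and 49, 28, 30 and 40. Upstream of *Fzd7*, a WNT receptor, a site (chr1:59449481-59449681) had 4925 and 3077 RPKM and MLL3/4 maxima of 15, 46, 15 and 15. At *Mitf*, the melanocyte regulator, an intronic site with both words (chr6:97883511-97883888) had 3447 and 2051 RPKM and MLL3/4 maxima of 18, 50, 21 and 33. At *Fzd7* and *Mitf* the MLL3/4 maximum was highest with WT-SOX9, in the shortest of the 4 lists.

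In all, 27 genes had at least 3 shared sites within reach, among them *Dsg2*, *Dsg3* and *Col17a1* of the lists above. *Dsg2*, *Dsg3*, *Etl4*, *Myof*, *Pgs1* and its neighbour *Socs3* had 5 each, and *Fto*, *Ankrd29*, *Dnah17* and *Dsg4* 4 each, some of them the same sites. In *Myof*, which encodes the membrane repair protein myoferlin, a site of 9357 RPKM with WT-SOX9 and 8820 RPKM with dTA-SOX9 (chr19:37959150-37959417) had MLL3/4 maxima of 10, 22, 13 and 13 in the order no DOX, WT-SOX9, dTA-SOX9 and dHMG-SOX9. Downstream of *Socs3*, a feedback inhibitor of cytokine signalling, a site (chr11:117958126-117958338) had 4925 and 10871 RPKM and MLL3/4 maxima of 38, 20, 24 and 23. A site upstream (chr11:117990182-117990280) with an AP1 word had 2134 and 2872 RPKM and lacked MLL3/4 with WT-SOX9, with 8, 27 and 13 in the other lists. In *Myof* MLL3/4 was kept at 5 of 5 sites in all 3 lists with DOX, and near *Socs3* at 4 of 5, against 70.2% of all shared sites. Some neighbouring sites at both genes had the same MLL3/4 maxima in every list, so these sites are not separate counts.

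Shared sites were next looked up in skin, in epidermal stem cells sorted from K14rtTA; TRE-myc-Sox9 male mice. SOX9 CNR had been done before DOX (D0, 21 postnatal days) and after 1, 2 and 6 weeks (W) of DOX (28, 35 and 63 postnatal days), and in skin grafted and kept on DOX for 12 weeks. Age and, at W12, grafting therefore changed with the time on DOX. SOX9 peaks overlapped 9.15% of the shared sites at D0. At W1 the share was 69.2%, with a 95% CI from 66.0 to 72.2, and at W2 it was 69.3%, from 66.1 to 72.4. It reached 82.8% at W6 (80.1 to 85.2), and 78.1% were overlapped at W12 (75.2 to 80.8). All 6671 WT-SOX9 sites gave 3.39%, 37.6%, 36.8%, 48.5% and 39.3%. At 472 shared sites (56.8%, 95% CI 53.4 to 60.1) a SOX9 peak was found at each of the 4 times on DOX, and at 78 (9.39%) at none of them. For WT-only sites the corresponding shares were 34.5% and 20.2%, and for sites with neither 16.5% and 59.0%.

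The WT-only sites differed most from the shared sites at the later times. At D0 the few SOX9 peaks overlapped more of the shared sites, by 4.85 points (95% CI 2.29 to 7.37). At W1 and W2 the shares differed by 4.32 points (95% CI -0.490 to 9.14) and 1.68 points (95% CI -3.06 to 6.45). At W6 the difference was 10.1 points (95% CI 5.83 to 14.4), and at W12, where 42.2% of WT-only sites had a SOX9 peak, it was 35.9 points (95% CI 31.1 to 40.5). Promoters took part in this, but outside them the W12 shares were still 79.3% and 50.1%, a difference of 29.1 points (95% CI 23.4 to 34.7). The W12 list was shorter than that of W6, with 9745 against 20579 peaks. At *Mitf* the skin SOX9 maximum was 8874 RPKM at W1 and 4228 RPKM at W12, at *Lrig1* 6050 and 4688 RPKM, at *Wnt7a* 10833 and 4596 RPKM and at the first of the *Col17a1* sites above 6339 and 8043 RPKM. At *Acvr1* no peak was listed at W1 and one of 8502 RPKM at W12. Near *Wdr11* none was listed at either time.

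**Figure D4:**
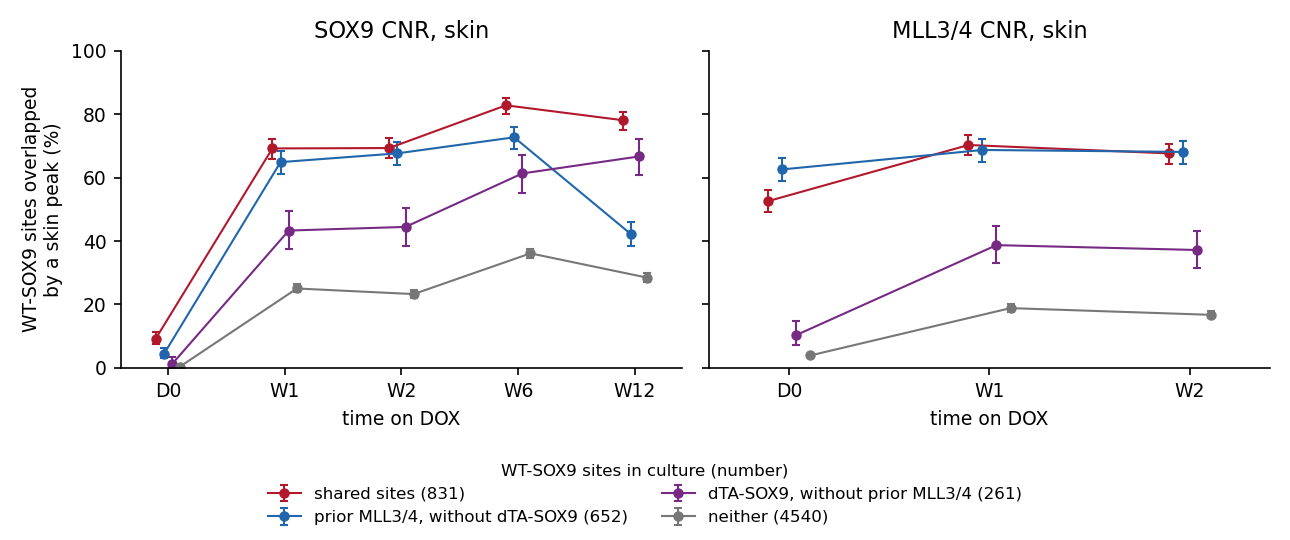
Share of WT-SOX9 sites of cultured cells (y axis, percent) overlapped by SOX9 (left) or MLL3/4 (right) CNR peaks of sorted epidermal stem cells by time on DOX (x axis, not to scale), with 95% Wilson intervals. Shared sites (red) and WT-SOX9 sites on prior MLL3/4 without dTA-SOX9 (blue) lie close together for SOX9 at W1 and W2 and apart at W12 (78.1% and 42.2%), and for MLL3/4 they differ at D0 (52.6% and 62.6%).

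MLL3/4 in skin, which the choice of sites did not use, overlapped 52.6% of the shared sites (95% CI 49.2 to 56.0) at D0, 70.3% (95% CI 67.1 to 73.3) at W1 and 67.6% (95% CI 64.4 to 70.7) at W2, and over all WT-SOX9 sites 21%, 34.7% and 32.8%. At 391 sites (47.1%) a peak was found at each of these times and at 204 (24.5%) at none. Of the 437 sites with MLL3/4 at D0, 412 (94.3%, 95% CI 91.7 to 96.1) had it at W1, against 83.6% of the 408 such WT-only sites. Of the 394 sites without it at D0, 172 (43.7%, 95% CI 38.8 to 48.6) had it at W1, and of the 244 such WT-only sites 107 (43.9%, 95% CI 37.8 to 50.1). At *Mitf* no MLL3/4 peak was listed in skin at D0 and one with an unscaled maximum of 27 at W1, and at *Tmem200a* one of 20 at W1 and none at D0. The WT-only sites had MLL3/4 at D0 more often, by 9.99 points (95% CI 4.92 to 15.0), but not outside promoters, where the difference, shared minus WT-only, was -0.0112 points (95% CI -6.05 to 6.03).

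As a control, the shared sites were looked up in the MYC-tag lists of SOX9 without its DNA-binding domain and of uninduced cells. A dHMG-SOX9 peak overlapped 107 shared sites (12.9%, 95% CI 10.8 to 15.3), against 6.40% of all WT-SOX9 sites and 11.8% of WT-only sites. A no-DOX list of replicate 1 alone, to which the limit on the maximum had not been applied, overlapped 119 shared sites (14.3%, 95% CI 12.1 to 16.9), against 9.07% of all WT-SOX9 sites and 14.9% of WT-only sites. Some shared sites therefore gave MYC-tag signal without SOX9 that can bind DNA, or without DOX, and at about the share of the WT-only sites (differences of 1.07 points, 95% CI -2.36 to 4.40, and -0.557 points, 95% CI -4.24 to 3.03). Leaving out the sites that overlapped a dHMG-SOX9 peak kept the differences between shared and WT-only sites in MLL3/4, AP1 words and promoters in direction.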

How the data were processed

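CNR of SOX9, the MYC tag and MLL3/4 was analysed from 18 deposited peak lists, standing for 32 of the 41 samples. The 9 other samples (CNR of JUN, ARID1a or BRG1) were not used here. The authors aligned paired reads to mm10 with Bowtie2 (2.2.9 in the submitters' processing notes, which also name Picard, SAMtools 1.3.1 and deepTools 3.1.2), kept fragments of at most 120 bp, pooled replicates and called peaks with SEACR at a threshold of 0.01. In the deposited MYC-tag and SOX9 lists, kept by the authors above 1800, the maximum is in RPKM. The deposited MLL3/4 lists of pooled samples hold maxima as coverage signal in whole numbers that was not scaled, whereas the methods name RPKM. The deposited total is a score that sums this coverage over the bases of a peak. No list gives a depth in reads, and signals in different units were not compared. For RPKM lists the fragments behind a maximum follow from the value of 1 fragment, 164 RPKM for WT-SOX9 and 205 RPKM for dTA-SOX9.

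The analysis used NumPy 2.4.6 and pandas 2.3.3 under Python 3.11.15. Peaks on the mitochondrial sequence were left out. Shares have 95% Wilson intervals, differences between classes of sites 95% Newcombe intervals, and differences between lists at the same sites 95% normal paired intervals. Sites are not replicates, and no p-value was computed. Genome sequence was RefSeq GRCm38.p6 (mm10) and genes were GENCODE vM21. The sites named were those of highest total signal in each list (5 for WT-SOX9 and 3 for each other criterion), those nearest to the limit of the rule, genes with at least 3 shared sites, and genes of the lists with a shared site. Methods were tested on simulated data. The members, gene lists and comparisons were chosen with earlier results of these data known. Alternatives changed the overlap, the list lengths, the RPKM limit, the classes' MLL3/4 signal, the windows, words, promoters and loci, and the replicates behind the uninduced lists. For 1 gene of the lists that had a shared site, neither name nor values are reported here.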

Additional observations from a re-analysis of the deposited data

How the results depend on the processing

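Of 180 main and alternative comparisons of the values that carry the report, 133 kept their direction and their side of 0 or moved little. The number of shared sites was 352 in the upper 50% of every list by total signal and 157 above 3600 RPKM. That limit cut the WT-SOX9, dTA-SOX9 and no-DOX MYC-tag lists alike, so the sites were classed anew. Of the shared sites of the main rule, 137 were above it with both forms. The number was 500 where the WT-SOX9 total reached the lowest of the dTA-SOX9 list, an alternative added after the data were seen. This last setting is called the dTA-SOX9 floor here.

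The difference WT-SOX9 minus dHMG-SOX9 in MLL3/4 at shared sites turned to 0.255 points where peaks had to share at least 50% of the shorter one, 3.21 for lists of equal size, 3.98 for the top 50% of each list, 9.55 above 3600 RPKM, between 0.236 and 1.26 without replicate 2 of an uninduced list, 0.829 without dHMG-SOX9 sites, 7.60 at the dTA-SOX9 floor and 1.11 outside promoters (added later). WT-SOX9 minus dTA-SOX9 turned to 6.79 for lists of equal size, 2.27 for the top 50%, 5.10 above 3600 RPKM and 5.40 at the floor, and was -3.28 on autosomes. For dTA-SOX9 minus dHMG-SOX9 the values were -3.57 for equal size, and 0.638 (50% overlap), 1.70 (top 50%), 4.46 (3600 RPKM) and 2.2 (floor) with intervals that include 0.

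Against WT-only sites, the MLL3/4 difference fell to 3.43 points with WT-SOX9 above 3600 RPKM and to 3.89 with dHMG-SOX9 within quartiles of no-DOX signal. The SOX word difference was -0.597 above 3600 RPKM, -3.07 outside promoters, 6.94 at 50% overlap, 5.22 with sites within 500 bp merged, 6.68 within quartiles and 9.72 for the shorter word of 6 bases, the last 4 with intervals above 0. The promoter difference was 0.751 above 3600 RPKM. The skin SOX9 difference at W1 was -0.0233 within quartiles, 5.30 without replicate 2 of the uninduced MLL3/4 list and 6.62 outside promoters. The D0 MLL3/4 difference was 5.41 above 3600 RPKM, -1.75 at the floor and -0.0112 outside promoters.

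The relative MLL3/4 signal (log2) with WT-SOX9 was 0.65 for lists of equal size, 1.00 above 3600 RPKM, 0.68 by total signal and 0.68 at the floor. With dHMG-SOX9 it was 0.029 for equal size, -0.12 above 3600 RPKM and -0.12 by total signal, and with dTA-SOX9 0 for equal size, -0.068 for the top 50% and -0.064 above 3600 RPKM. Shorter lists and stricter limits hold fewer sites. The other causes were not tested. The AP1 difference and the MLL3/4 difference with dTA-SOX9 kept their direction and intervals above 0 under every alternative tried. No paired analysis was possible because the groups compared were deposited as lists of pooled replicates, with a separate list of replicate 1 for uninduced cells alone. The lack of a depth for the MLL3/4 lists limits each comparison between them.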

Other observations

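Other parts of the shared sites were described by their values alone. Of the 42 shared sites that kept MLL3/4 with WT-SOX9 and with neither deletion, 10 held a SOX word (23.8%, 95% CI 13.5 to 38.5) and 10 an AP1 word (23.8%), against 26.4% and 19.2% of the 583 sites kept in all lists, and neither difference exceeded its counting interval (-2.61 points, 95% CI -13.6 to 12.5, and 4.60 points, 95% CI -6.27 to 19.6). Of these 42, 27 (64.3%) had a SOX9 peak in skin at W1 and 11 (26.2%) an MLL3/4 peak in skin at D0, against 73.1% and 57.8% of the 583. The 81 sites without MLL3/4 in WT-SOX9 cells alone held an AP1 word in 30.9% of windows (95% CI 21.9 to 41.6), 11.7 points more than the 583 (95% CI 2.03 to 22.8), and had a SOX9 peak in skin at W1 in 48.1% of cases.

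A skin SOX9 peak at W1 did not go with either word. Shared sites with such a peak had a SOX word less often by 1.99 points (95% CI of the difference -8.71 to 4.34) and an AP1 word more often by 0.600 points (95% CI -5.56 to 6.24). In *Etl4*, which had 5 shared sites, 2 neighbouring sites lay on the same no-DOX MLL3/4 peak (maximum 23) and the same dTA-SOX9 peak (6769 RPKM). In WT-SOX9 cells an MLL3/4 peak of maximum 9 was listed at the first (chr2:20549447-20549615) and none at the second (chr2:20549640-20549866). A maximum of 9 was the median of that list. The edge of 1 peak between adjoining sites cannot be told apart here from a difference between them.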
